A study of Mus musculus with 6 samples.

Results

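The 35 genes described here are a set of glycolysis and hypoxia response genes, listed by name. They hold 3 membrane transporters of glucose and lactate, 15 enzymes of glycolysis, 3 enzymes at the fate of pyruvate, 3 subunits of the hypoxia-inducible factors (HIF), 2 HIF prolyl hydroxylases and 9 other genes known to be induced by low oxygen. A member is a row of the deposited table whose gene name is on the list, and all 35 were found among 53379 rows. *Aldoa* had more than 1 row, and the row with the highest mean was kept. The values came from neural stem cells (NSCs), the self-renewing cells from which neurons, astrocytes and oligodendrocytes arise. They had been derived from the telencephalic cortex of *Tbl1xr1* flox/flox mouse embryos at embryonic day 14.5 and grown as neurospheres with bFGF and EGF. All 6 libraries carry the floxed alleles and a lentivirus. Control cells (replicates 1, 1_1 and 2) received GFP only, cells labelled Cre (replicates 2, 2_2 and 3) received Cre-GFP, whose recombinase removes a floxed exon of *Tbl1xr1*, and GFP+ cells were sorted. *Tbl1xr1* encodes a subunit of the NCOR corepressor complex. The labels do not say whether like-numbered libraries such as 2 and 2_2 came from 1 culture, so the p-values measure the spread between these libraries, which may be technical.

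Glycolysis splits glucose into pyruvate. Hexokinase traps glucose in the cell, phosphofructokinase commits it to the pathway, and lactate dehydrogenase turns pyruvate into lactate, which leaves through monocarboxylate transporters. HIF is a dimer of an oxygen-labile alpha subunit, such as that of *Hif1a* or *Epas1*, and a stable partner, *Arnt*. In the presence of oxygen, prolyl hydroxylases of the *Egln* family mark the alpha subunit for breakdown, so that its amount is set largely at the protein level. When oxygen is low, HIF binds a short element with the core ACGTG or GCGTG and raises genes of glucose uptake, glycolysis, lactate export and blood vessel growth, together with *Egln3* itself, which closes a feedback loop. Cultured neural progenitors are known for active glycolysis.

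The element is shown here in the promoters of the members whose levels passed the test below. Sequences are from RefSeq on GRCm38.p6, are written 5′ to 3′ on the strand of the gene, and are in lower case except for the letters ACGTG or GCGTG or their reverse complements CACGT and CACGC. For *Hk2*, *Egln3* and *Adm* the 250 bases before the start site are given, and they lie outside the annotated gene.
*Hk2*, chr6:82774455-82774704, minus strand: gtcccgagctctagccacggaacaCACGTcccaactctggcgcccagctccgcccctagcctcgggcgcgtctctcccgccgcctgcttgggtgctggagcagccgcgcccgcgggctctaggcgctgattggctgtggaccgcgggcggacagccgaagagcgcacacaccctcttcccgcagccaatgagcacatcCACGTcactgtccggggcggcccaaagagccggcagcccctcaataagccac
*Egln3*, chr12:54203875-54204124, minus strand: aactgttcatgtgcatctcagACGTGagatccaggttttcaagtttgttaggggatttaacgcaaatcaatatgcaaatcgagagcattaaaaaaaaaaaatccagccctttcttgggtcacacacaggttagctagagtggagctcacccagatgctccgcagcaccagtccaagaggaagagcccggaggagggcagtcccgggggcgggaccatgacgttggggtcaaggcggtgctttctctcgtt
*Adm*, chr7:110627407-110627656, plus strand: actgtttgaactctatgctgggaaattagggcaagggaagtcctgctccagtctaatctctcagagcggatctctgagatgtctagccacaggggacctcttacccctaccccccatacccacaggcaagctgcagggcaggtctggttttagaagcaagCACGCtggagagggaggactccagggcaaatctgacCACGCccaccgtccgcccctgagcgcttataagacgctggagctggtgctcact

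For the other 3 members that passed, every site in the windows is given with 10 bases on each side, or up to the end of the window. *Pfkfb3* has a second start site, which the last of its lines belongs to. In the second line of *Pfkfb3* and the first of *Hif1a* the base before the capitals is a c, so that the letters are those of the E-box CACGTG, which reads the same on both strands and is shown once.
*Slc16a3*, chr11:120949030-120949054, plus strand: ggcagcggtgACGTGcgcgggggac
*Slc16a3*, chr11:120949043-120949067, plus strand: tgcgcgggggACGTGccgcgcgacg
*Pfkfb3*, chr2:11502198-11502222, minus strand: caggaacagaGCGTGctgctctcgt
*Pfkfb3*, chr2:11502128-11502152, minus strand: ccttctctccACGTGaaagggggct
*Pfkfb3*, chr2:11502041-11502063, minus strand: gccgggcagtGCGTGtggcatcc
*Pfkfb3*, chr2:11553975-11553999, minus strand: ccgcgccgtgACGTGccaagctgtg
*Hif1a*, chr12:73907723-73907747, plus strand: acagacaagcACGTGagcggggcag
*Hif1a*, chr12:73907787-73907811, plus strand: gctgagagcaACGTGggctggggtg

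The site nearest to the start site among those before it began 14 bases before it in *Slc16a3*, 52 in *Pfkfb3* and 70 in *Hif1a*. A window from 250 bases before to 50 bases after the start site was available for 32 of the 35 members, with 47 windows in all. The letters ACGTG or GCGTG were present on either strand in 36 of the 47 windows, or 76.6%. Of all 32851 promoter windows, 43.8% held them. The members' windows were richer in G and C, with a median of 62.3% against 52.7%, and among all windows whose G and C content lay between the members' quartiles (56.8% and 68%) the share was 63.5%. A match is a description of the letters only. The search also takes in the E-box CACGTG, which other factors bind and which was present in 10.6% of the members' windows, 7.15% of all windows and 10.4% of the windows of like G and C content.

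The targeted gene was read first. *Tbl1xr1* stood at 2522 normalized counts in control 1, 2190 in control 1_1 and 2721 in control 2, and at 3774, 3463 and 2905 in the libraries labelled Cre 2, 2_2 and 3. Normalized counts are reads per gene scaled by a size factor of the library, and the recovered depth ran from 7510615 to 14828100 reads on genes per library. The mRNA of the target was thus not lower in any library labelled Cre than in the control libraries (log2 fold change 0.45, SE 0.14, limma adjusted p = 0.06), and the count over the whole gene also covers exons outside the floxed one. The paper reports genotyping by PCR, RT-qPCR and Western blot of the sorted cells, and describes *Tbl1xr1* mRNA and protein as absent after Cre. It does not state whether the sequenced libraries came from the cells so checked. The groups below are named by their labels. Fold changes are Cre minus control on log2(normalized count + 1), tested with limma across 14840 genes with a mean of at least 10 normalized counts, and a gene is said to have risen or fallen at an adjusted p-value under 0.05.

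The labelled cell type was present in every library. All 10 neural stem cell markers, such as *Nes* and *Sox2*, were tested, and their summed level was 33831 to 37734 normalized counts in control and 33561 to 35321 in Cre, with *Nes* lower. Of the astrocyte markers 5 of 9 tested were higher in Cre. The sum of the list was 14487 to 15776 in control and 22670 to 26518 in Cre. The 5 called were *S100b* (227 to 255 and 1706 to 2506), *Aqp4*, *Slc1a2*, *Glul* and *Sox9*. *Slc1a3* (5811 to 6232 and 7306 to 7465) and *Sox9* (3786 to 4656 and 7352 to 10100) had the highest levels. *Slc1a3* was not called (limma adjusted p = 0.126). *Aldh1l1* went the other way, at 14.7 to 19 in control and 2.58 to 9 in Cre, but was not called (limma adjusted p = 0.065). *Gfap* was at most 10.3 and *Gjb6* at most 0.895 normalized counts in any library. Of the oligodendrocyte lineage markers 3 of 6 were higher, with sums of 12488 to 14404 and 17236 to 19639. Of the neuron markers 1 of 8 was higher (*Elavl4*) and 1 lower (*Gap43*), with sums of 17702 to 18794 and 15273 to 17250. Most of these sums came from *Map2* (9124 to 9312 in control and 9903 to 11155 in Cre) and *Gap43* (8287 to 9162 and 4095 to 6080). *Stmn2* was at 0 in every library, *Dcx* at most 12, and *Snap25* and *Rbfox3* at most 22 and 28.4 normalized counts. The part of these lists in the results below was not tested. Endothelial markers were nearly absent, with 8 of 10 at no more than 10 normalized counts in every library (3 of them at 0 in all), *Cdh5* and *Cldn5* among them, and 7 of 10 microglia markers were at that level (2 at 0).

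In the Cre libraries 5 members fell and 1 rose of the 34 that could be tested. This is 17.6% of the tested members, where 9.96% of all tested genes passed. The lactate exporter gene *Slc16a3*, the glycolytic regulator *Pfkfb3*, the hexokinase *Hk2*, the HIF prolyl hydroxylase *Egln3* and the peptide hormone gene *Adm* fell, and *Hif1a* rose. The members that fell were 14.7% of those tested, against 5.22% of all genes, and the member that rose was 2.94%, against 4.74%. *P4ha2* was under the filter of 10. Since each library pools the RNA of many sorted cells, fewer cells with a transcript and less of it per cell cannot be told apart.

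The library labelled Cre 2_2 stood apart in these genes, and values without it are given beside the results that it moves. It was the lowest of the 6 libraries in 23 of the 34 tested members (67.6%), where it was the lowest in 16.1% of all tested genes. In the other 5 libraries 1 to 3 members had their lowest value. Against the control mean the median member differed by -0.61 (log2) in Cre 2_2, by -0.17 in Cre 3 and by -0.020 in Cre 2, while the median of all genes differed by 0.01, 0.01 and -0.001. Within the Cre group the members had a median SD of 0.45 on the log2 scale, against 0.25 for all genes. In the control group it was 0.14, against 0.18.

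**Figure D1:**
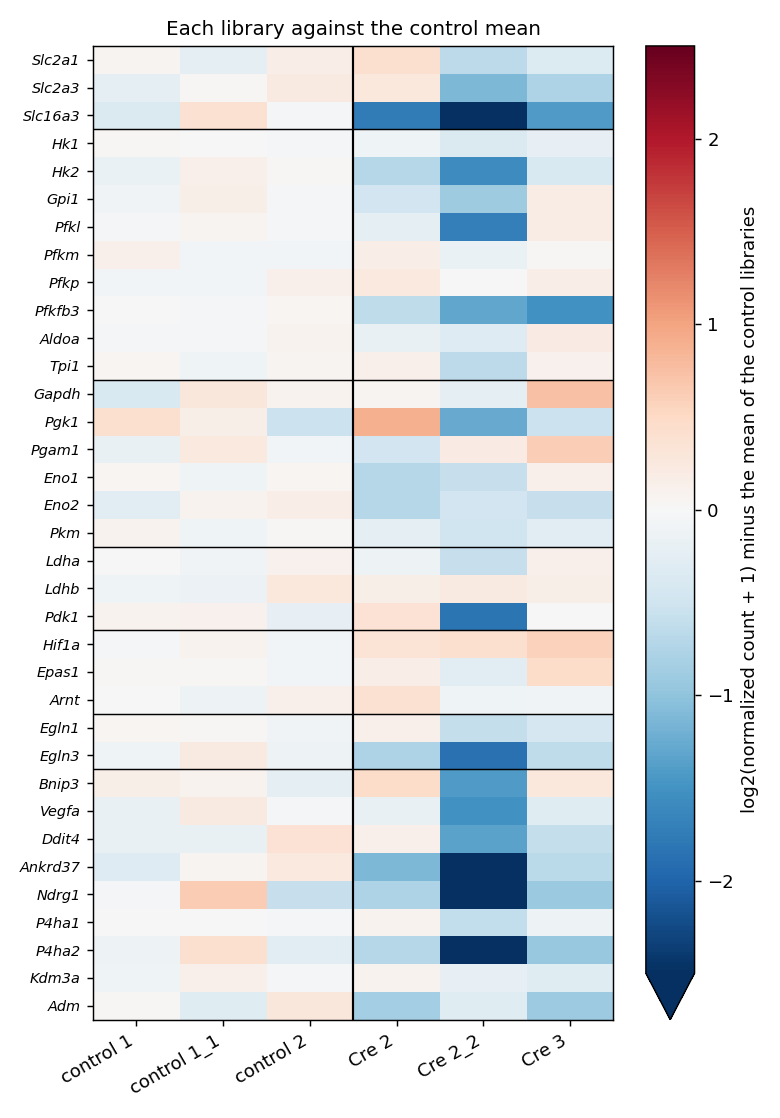
Each row is 1 of the 35 members, grouped by role with lines between the roles, and each column 1 library. Colour gives log2(normalized count + 1) minus the mean of the 3 control libraries, from blue (lower) to red (higher), with the scale ending at -2.5 and 2.5. The column of Cre 2_2 holds most of the deep blue cells (median of the tested members -0.61), whereas Cre 2 has both colours (median -0.020). *Slc16a3* and *Pfkfb3* are blue in all 3 Cre libraries and *Hif1a* is red in all 3.

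The direction of the whole set moved with that library. With all 6 libraries 26 of 34 members (76.5%) had a log2 fold change below 0, against 50.1% of all genes, and the median was -0.30, against -0.001. Without Cre 2_2 it was 20 of 34 (58.8% against 49.9%), with a median of -0.066. Without Cre 2 it was 28 of 34 and -0.45. The count of members that fell was 4 without Cre 2_2, where 2.68% of all genes fell, and 12 without Cre 2, where 8.14% did. It was 7 without Cre 3 (5.09% of all genes), 2 without control 1 (1.68%), 2 without control 1_1 (2.3%) and 1, *Pfkfb3*, without control 2 (1.99%), so that the members' count went down together with that of all genes when a control library was left out. The groups did not overlap for 11 of 34 members, where 30.3% of all genes had no overlap. Of these, 10 were lower in Cre (29.4%, against 15.5% of all genes) and 1 was higher, *Hif1a* (against 14.7%). Without Cre 2_2, 11 of 34 were lower with no overlap (32.4% against 19.4%) and 5 higher (against 18.1% of all genes).

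Among the transporters, *Slc16a3* had the largest fold change of the tested members. It encodes MCT4, the monocarboxylate transporter that exports lactate from highly glycolytic cells. Its normalized counts were 351 in control 1, 585 in control 1_1 and 440 in control 2, and 132, 35.3 and 167 in Cre 2, 2_2 and 3, the order kept for all genes below. Every Cre library was below every control library, and Cre 2_2 was by far the lowest. The means were 459 ± 118 and 111 ± 68.1 (SD, n = 3 each), a 4.12-fold lower mean in Cre (log2 fold change -2.27, SE 0.45, adjusted p = 0.0103). Without Cre 2_2 the log2 fold change was -1.59, with an adjusted p of 0.00678. The call was lost without control 1_1 (-2.08, adjusted p = 0.0591) and without control 2 (-2.28, adjusted p = 0.0534). *Slc16a3* shares 831 exon bases with *Csnk1d* on the opposite strand, and the library kit does not mark strand. *Csnk1d* stood at 1061 to 1691 normalized counts in control and 1243 to 1801 in Cre, which overlap.

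The glucose importers did not pass the test. *Slc2a1*, which encodes the widely expressed GLUT1, had 195 to 260 normalized counts in control and 145 to 305 in Cre (log2 fold change -0.20, adjusted p = 0.663). *Slc2a3*, which encodes the high-affinity transporter GLUT3, had 135 to 187 and 73.2 to 191 (-0.55, adjusted p = 0.296), with Cre 2 at the top and Cre 2_2 at the bottom of the Cre range. Without Cre 2 its adjusted p was 0.0112 (log2 fold change -0.95), and without Cre 2_2 the log2 fold change of *Slc2a1* was 0.026.

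*Hk2*, the hexokinase that responds to hypoxia and growth factors, fell by less than 2-fold. Its normalized counts were 819, 1002 and 930 in control and 556, 307 and 702 in Cre. The groups did not overlap, with Cre 3 nearest to the control libraries. The mean was 1.76-fold lower in Cre (917 ± 91.9 against 522 ± 200, SD, n = 3), with a log2 fold change of -0.89 (SE 0.24, adjusted p = 0.0432). This call is close to the threshold. It was lost without Cre 2_2 (-0.55, adjusted p = 0.0952), without control 1 (adjusted p = 0.105), without control 1_1 (0.144) and without control 2 (0.139), and edgeR on the recovered reads gave an adjusted p of 0.0521. The constitutive hexokinase *Hk1* had 874, 866 and 838 normalized counts in control and 796, 665 and 741 in Cre. Its groups did not overlap either, but it was not called (-0.23, SE 0.12, adjusted p = 0.259).

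*Pfkfb3* fell in every alternative tried. It makes and breaks down fructose 2,6-bisphosphate, the strongest activator of phosphofructokinase, and thereby sets the pace of glycolysis. Its normalized counts were 311, 300 and 324 in control and 200, 126 and 108 in Cre. The control libraries lay close together and all Cre libraries were below them, with Cre 3 the lowest. The mean was 2.15-fold lower in Cre (312 ± 12.1 against 145 ± 48.8, SD, n = 3), with a log2 fold change of -1.15 (SE 0.21, adjusted p = 0.00708). It was past the threshold in 17 of 17 alternatives, with adjusted p-values of 0.000115 to 0.0452.

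The phosphofructokinases that it acts on were not called. *Pfkm* and *Pfkp* had log2 fold changes of 0.01 and 0.14 with narrow ranges in both groups. *Pfkl*, the liver-type subunit, had 429 to 468 normalized counts in control and 377, 134 and 503 in Cre 2, 2_2 and 3. Its log2 fold change of -0.59 (adjusted p = 0.346) was -0.027 without Cre 2_2. The other enzymes of the upper pathway, *Gpi1*, *Aldoa* and *Tpi1*, had log2 fold changes of -0.39, -0.10 and -0.14 (adjusted p 0.295 to 0.722). Without Cre 3 *Gpi1*, the glucose phosphate isomerase, had an adjusted p of 0.015 (-0.68).

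In the lower pathway, from glyceraldehyde phosphate to pyruvate, none of 6 members passed (2 of them, *Eno2* and *Pkm*, had an unadjusted p under 0.05, and neither edgeR nor DESeq2 called any). *Pkm*, the pyruvate kinase that makes pyruvate and ATP, had 2938, 2585 and 2831 normalized counts in control and 2355, 1971 and 2271 in Cre. All Cre libraries were below the controls, with a log2 fold change of -0.34 (SE 0.12, adjusted p = 0.0951). Without Cre 2 its adjusted p was 0.0409 (-0.39). The neuronal enolase *Eno2* was low, at 40.4, 51.2 and 54.7 in control and 29.1, 34.4 and 32.2 in Cre, again with no overlap (-0.59, SE 0.26, adjusted p = 0.191). The main enolase *Eno1* had 645 to 718 in control and 424, 463 and 754 in Cre 2, 2_2 and 3 (-0.39, adjusted p = 0.241), so that Cre 3 was above all controls. Without Cre 3 its adjusted p was 0.0127 (-0.64). For *Gapdh*, *Pgk1* and *Pgam1* the log2 fold changes were 0.19, -0.30 and 0.11 (adjusted p 0.726 to 0.842).

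Several of these enzymes have near-identical copies in the genome, and how reads that match more than 1 copy were handled is not known. Of all stretches of 50 bases in the transcript, 92.9% for *Pgk1*, 91.9% for *Pgam1*, 85.6% for *Gapdh* and 72.2% for *Eno1* were also found elsewhere in the mm9 genome. In control they stood at 9.19 (*Pgk1*), 43.8 (*Pgam1*), 41.7 (*Gapdh*) and 129 (*Eno1*) normalized counts per kb of exon, whereas *Aldoa* and *Pkm* of the same pathway stood at 1070 and 1165. *Bnip3*, a mitophagy receptor, had 61.7% and *Pkm* 41.4%. For *Gapdh*, *Pgam1*, *Pgk1* and *Eno1* the annotated pseudogenes at such copies that have a row held few counts. Their summed control means were 16.4 normalized counts for *Gapdh* (58 pseudogenes), 2.83 for *Pgam1* (3) and 0 for *Pgk1* (2) and *Eno1* (3). The part of the copies in these levels was not tested. Among the members that rose or fell the share was 0%, except 1.19% for *Pfkfb3*. The 13 pseudogenes with a row at the copies of *Pfkfb3* had summed means of 203 normalized counts in control and 190 in Cre. *Pfkfb3* itself had means of 312 and 145.

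**Figure D2:**
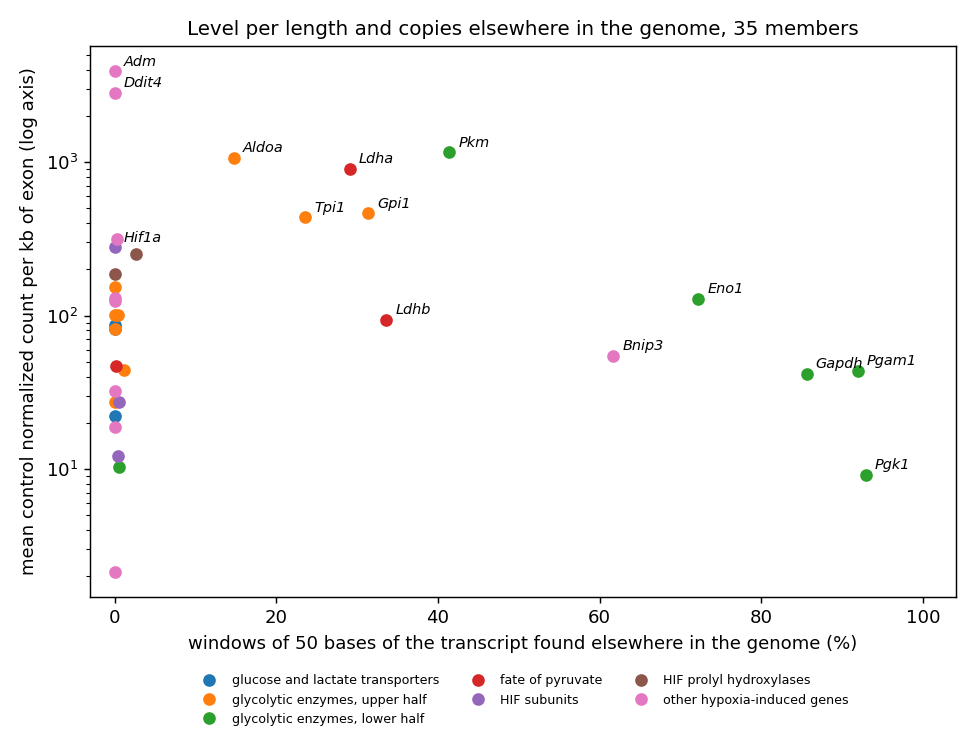
Each point is 1 of the 35 members. The horizontal axis is the share of 50-base stretches of the transcript found elsewhere in the genome (%), the vertical axis the mean of the 3 control libraries in normalized counts per kb of exon (log axis), and colour marks the role. *Gapdh*, *Pgam1* and *Pgk1* lie at the lower right, at 85.6% to 92.9% and 9.19 to 43.8 per kb. *Adm* and *Ddit4*, with 0%, are at the top, at 3924 and 2841 per kb.

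At the fate of pyruvate no member passed the test, and none had an unadjusted p under 0.05 or was called by edgeR or DESeq2. The lactate dehydrogenase subunits *Ldha* and *Ldhb* had log2 fold changes of -0.20 and 0.17 (adjusted p = 0.494 and 0.59). *Pdk1* encodes a kinase that inhibits pyruvate dehydrogenase, the mitochondrial enzyme complex that turns pyruvate into acetyl-CoA. It had 387, 396 and 319 normalized counts in control and 470, 102 and 365 in Cre, so that Cre 2_2 was below and Cre 2 above all controls (-0.49, adjusted p = 0.521). Without Cre 2_2 its log2 fold change was 0.18.

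*Hif1a* was the member that rose. Its normalized counts were 1617, 1739 and 1571 in control and 2080, 2170 and 2443 in Cre. The groups did not overlap, and Cre 2_2 lay between the other Cre libraries. The mean was 1.36-fold higher in Cre (1642 ± 87 against 2231 ± 189, SD, n = 3), with a log2 fold change of 0.44 (SE 0.12, adjusted p = 0.0353). The direction held in all alternatives (0.37 to 0.49), but the call held in 9 of 17. It was lost without control 1 (adjusted p = 0.152), control 1_1 (0.0772), control 2 (0.135), Cre 2_2 (0.101) or Cre 3 (0.0691). *Hif1a* shares 330 exon bases with the non-coding *Gm15283* on the opposite strand, whose counts were 29.3 to 35.8 in control and 40.5 to 51.9 in Cre.

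The other HIF subunits were not called. *Epas1*, which encodes the alpha subunit HIF-2alpha, had 66.1, 65.8 and 61.3 normalized counts in control and 72, 53.4 and 88.6 in Cre (log2 fold change 0.12, SE 0.24, adjusted p = 0.808). *Arnt*, the shared partner, had 216, 200 and 239 in control and 283, 203 and 206 in Cre (0.065, SE 0.17, adjusted p = 0.853). Per kb of exon *Hif1a* was the most abundant subunit in control, at 279 normalized counts, against 27.3 for *Arnt* and 12.1 for *Epas1*.

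Of the prolyl hydroxylases, *Egln3* (PHD3) fell and *Egln1* (PHD2), the main oxygen sensor in most cells, was not called. *Egln3* had 459, 578 and 449 normalized counts in control and 289, 135 and 318 in Cre. All Cre libraries were below the controls and Cre 2_2 was the lowest. The mean was 2-fold lower (495 ± 71.6 against 248 ± 98.3, SD, n = 3), with a log2 fold change of -1.08 (SE 0.27, adjusted p = 0.0303). Without Cre 2_2 it was -0.70 (adjusted p = 0.0493), and the call was lost without control 1 (0.0933), control 1_1 (0.121) or control 2 (0.0928). *Egln1* had 920, 908 and 842 in control and 969, 585 and 668 in Cre, so that Cre 2 was above all controls (-0.30, SE 0.17, adjusted p = 0.311). Without Cre 2 its adjusted p was 0.0169 (-0.51).

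Of the 8 tested genes in the group of other hypoxia-induced genes, *Adm* fell and all 8 had a log2 fold change below 0. *Adm* encodes adrenomedullin, a peptide that widens blood vessels and is strongly induced by HIF. It had the highest level per kb of exon of all members, 3924 normalized counts in control and 2445 in Cre. Its counts were 5473, 4323 and 6532 in control and 2958, 4365 and 2853 in Cre, and the groups overlapped, since Cre 2_2 was just above control 1_1. The mean was 1.6-fold lower in Cre (5443 ± 1105 against 3392 ± 844, SD, n = 3), with a log2 fold change of -0.69 (SE 0.19, adjusted p = 0.0418). Cre 2_2 held its highest Cre value, as it did for *Eno2* and *Ldhb*, and without that library the log2 fold change of *Adm* was -0.89 (adjusted p = 0.027). The call was lost without control 1 (adjusted p = 0.148), control 2 (0.173) or Cre 3 (0.0884).

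**Figure D3:**
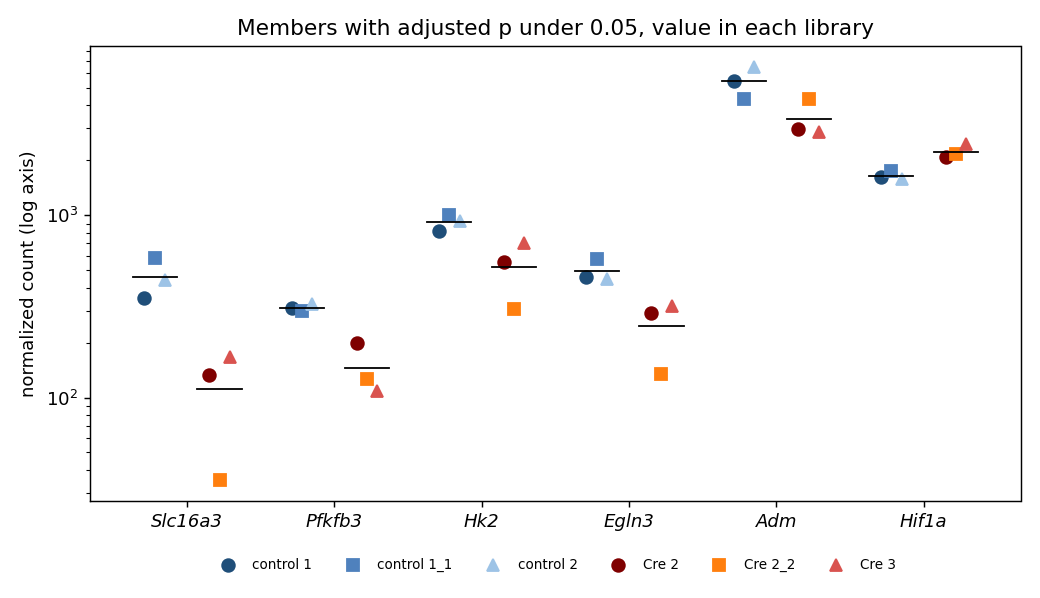
Normalized counts (log axis) of the 6 members past an adjusted p-value of 0.05. Each point is 1 library, with control to the left and Cre to the right of each gene, and each line is the mean of 3 libraries. *Slc16a3*, *Pfkfb3*, *Hk2* and *Egln3* have all Cre points below the control points, *Hif1a* has them above, and *Adm* overlaps at 4365 in Cre 2_2 and 4323 in control 1_1.

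Other genes of this group had no overlap between the libraries but did not pass. *Vegfa*, the main growth factor of blood vessels, had 1191, 1564 and 1311 normalized counts in control and 1178, 469 and 1084 in Cre (-0.67, SE 0.28, adjusted p = 0.16), and without Cre 2_2 its log2 fold change was -0.25. *Ankrd37*, a small HIF target, had 35.8, 46.8 and 53.3 in control and 20.1, 5.17 and 27.8 in Cre (-1.56, SE 0.51, adjusted p = 0.0786). It was past the threshold with DESeq2 (0.0436) and without Cre 2 (0.037) or Cre 3 (0.028). The value of *Ankrd37* in Cre 2_2 rests on 6 reads. On the opposite strand it shares 349 exon bases with *Lrp2bp* (12.8 to 27.8 in control and 22.9 to 43.9 in Cre). It also shares 57 with *Ufsp2* (541 to 731 and 611 to 998). *Ndrg1*, a gene of stress and differentiation, had 113, 180 and 77.4 in control and 67.9, 2.58 and 60.9 in Cre (-2.24, SE 0.89, adjusted p = 0.14). The value of Cre 2_2 rests on 3 reads, and without that library the log2 fold change was -0.85 (adjusted p = 0.194). Without Cre 2 the adjusted p of *Ndrg1* was 0.0226, and that of *Vegfa* 0.0252. *P4ha2*, a collagen prolyl hydroxylase that was not tested, had 11.9, 17.6 and 10.7 in control and 7.62, 0 and 6.27 in Cre.

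The remaining genes of this group overlapped between the groups. *Ddit4*, which encodes the mTOR inhibitor REDD1, had 4150, 4128 and 6083 normalized counts in control and 5157, 1852 and 3106 in Cre (-0.60, adjusted p = 0.23). Without Cre 2 its adjusted p was 0.00645 (-0.97). *Bnip3* had 105 to 136 in control and 169, 45.6 and 148 in Cre 2, 2_2 and 3 (-0.23, adjusted p = 0.768), and without Cre 2_2 the log2 fold change was 0.36. *P4ha1*, a collagen prolyl hydroxylase gene related to *P4ha2*, and the histone demethylase *Kdm3a* had log2 fold changes of -0.22 and -0.14.

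**Figure D4:**
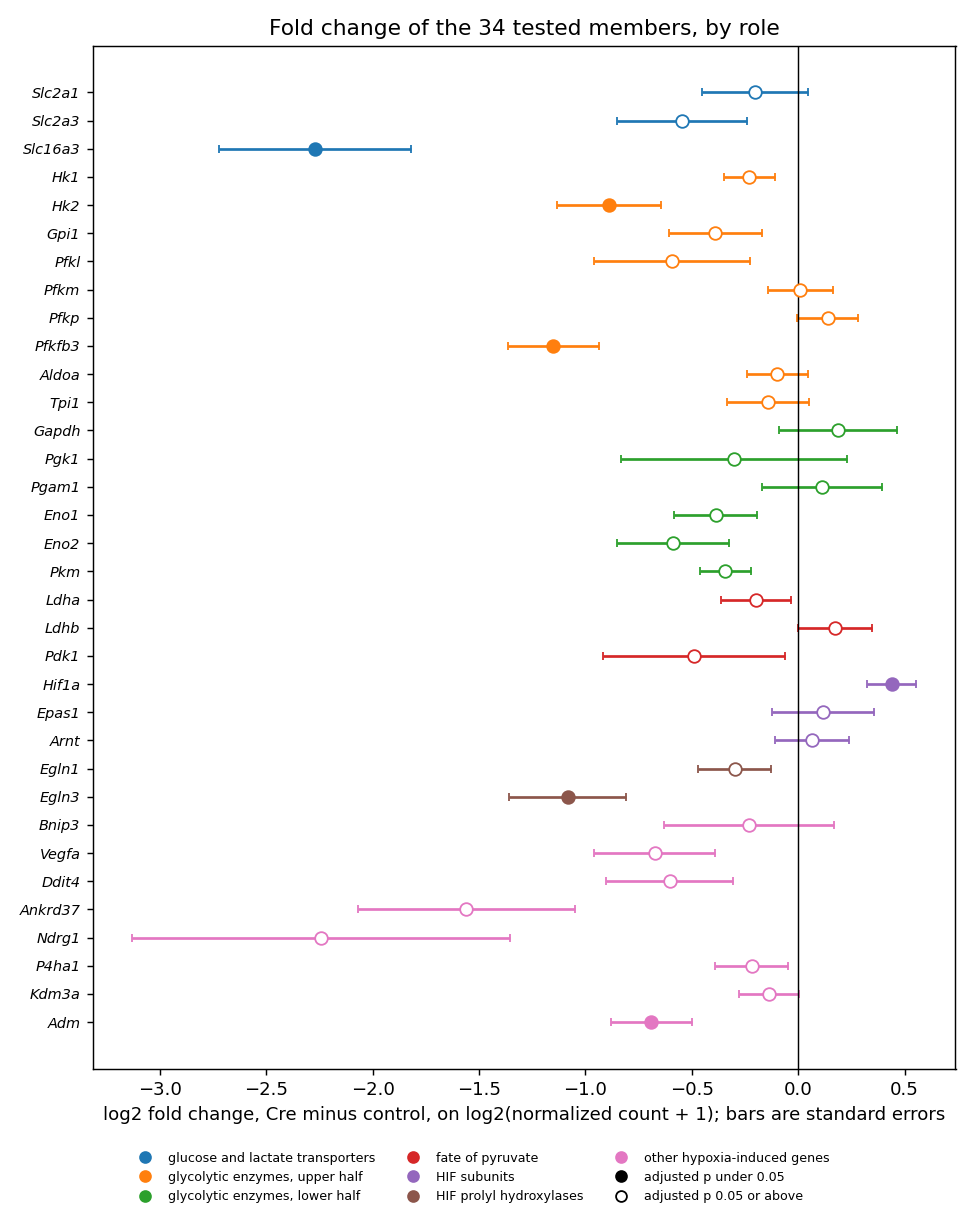
Log2 fold change (Cre minus control, on log2 of normalized count + 1) of the 34 tested members, coloured by role. Bars are standard errors, filled points have an adjusted p-value under 0.05 and open points do not. The filled points are *Slc16a3* (-2.27), *Pfkfb3* (-1.15), *Egln3* (-1.08), *Hk2* (-0.89), *Adm* (-0.69) and *Hif1a* (0.44), and *Ndrg1* has the widest bar (SE 0.89).

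By role, the depth of the drop in Cre 2_2 was not even. Relative to the mean of Cre 2 and Cre 3 the median log2 difference was -1.19 in the 8 other hypoxia-induced genes, -0.86 in the 3 transporters, -0.81 in the 2 hydroxylases, -0.57 at the fate of pyruvate, -0.25 in the 3 HIF subunits, -0.34 in the upper and -0.26 in the lower pathway, and 0.01 in all genes. The largest differences were those of *Ndrg1* (-4.19), *Slc16a3* (-2.04), *Pdk1* (-2.01) and *Ankrd37* (-2.00) among tested members, whereas *Hif1a* differed by -0.05, *Arnt* by -0.25 and *Epas1* by -0.57. *Adm*, *Eno2*, *Pgam1* and *Ldhb* were higher there, by 0.59, 0.16, 0.14 and 0.07.

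Ratios of related genes within a library depend little on scaling unless a gene is near 0, and 14 pairs were compared with a two-sided exact permutation test, which cannot go below p = 0.1 with 3 libraries against 3. The ratios did not overlap in 4 pairs, all higher in Cre and all at an exact permutation p = 0.1 (0.35 adjusted over the 14 pairs). The log2 ratio of *Slc16a1* to *Slc16a3*, the genes of the monocarboxylate transporters MCT1 and MCT4, was 0.17 ± 0.36 in control and 1.88 ± 1.15 in Cre (SD, n = 3), a difference of 1.71, or 1.07 without Cre 2_2. Both genes had lower means in Cre, and *Slc16a1* itself had an adjusted p of 0.0619. The ratio of *Egln1* to *Egln3* was 0.85 ± 0.18 and 1.64 ± 0.52, a difference of 0.78, or 0.55 without Cre 2_2. That of *Hif1a* to *Epas1* was 4.65 ± 0.06 and 4.97 ± 0.30, a difference of 0.32, or 0.15 without Cre 2_2. The ratio of *P4ha1* to *P4ha2* was at least 4.86 in each control library (mean 5.25 ± 0.34) and 6.05 and 6.08 in Cre 2 and 3. In Cre 2_2 *P4ha2* had 0 reads and the ratio is set by the added count of 1, and without that library the difference was 0.81.

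The other 10 pairs overlapped, with exact p-values of 0.2 to 0.7 (0.4 to 0.7 adjusted). The log2 ratio of *Hk1* to *Hk2* was -0.09 ± 0.16 in control and 0.57 ± 0.52 in Cre. That of *Pfkl* to *Pfkm* was 0.83 ± 0.17 and 0.23 ± 0.87, with Cre 2_2 at -0.72 and Cre 3 at 0.98. That of *Ldha* to *Ldhb* was 4.19 ± 0.13 and 3.83 ± 0.40.

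**Figure D5:**
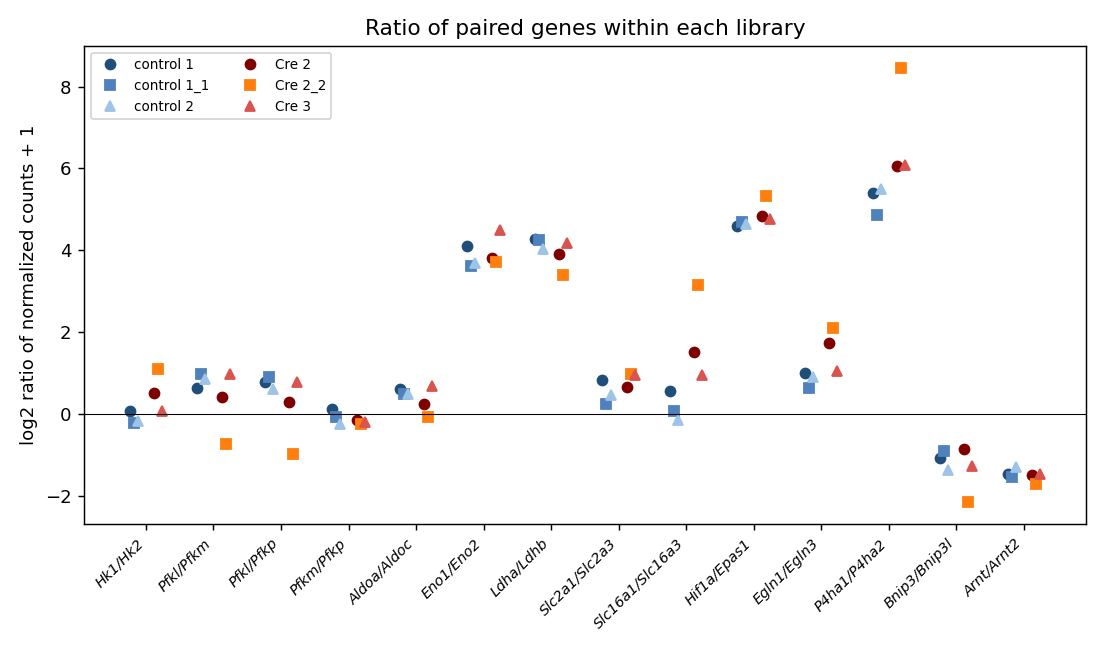
Log2 ratio of normalized counts + 1 for 14 pairs of related genes, with 1 point per library. Blue points are control and the others Cre, with Cre 2_2 as orange squares. In *Slc16a1*/*Slc16a3*, *Hif1a*/*Epas1*, *Egln1*/*Egln3* and *P4ha1*/*P4ha2* all Cre points lie above the control points. Cre 2_2 is the lowest in *Pfkl*/*Pfkm* (-0.72).

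A list of 100 further genes of the pathway, of which 75 were tested, was read beside the members. Of these, 9 fell and 3 rose, 16% of those tested where 9.96% of all genes passed. The 31 tested genes of glycolysis, pyruvate and lactate held 1 of them, and the 44 of the HIF pathway and its targets held 11. The single gene of sugar metabolism was *Galm*, the galactose mutarotase, at 20.2, 30.7 and 25.3 normalized counts in control and 71.3, 56.8 and 43 in Cre (log2 fold change 1.13, SE 0.30, adjusted p = 0.0377).

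Among HIF targets the smallest adjusted p was that of *Trf*, which encodes the iron carrier transferrin. It had 1885, 1871 and 1827 normalized counts in control and 371, 392 and 440 in Cre (-2.22, SE 0.12, adjusted p = 1.64e-06). The transferrin receptor gene *Tfrc* had 1320, 1308 and 1112 in control and 653, 735 and 542 in Cre (-0.96, adjusted p = 0.00208). In both genes the libraries of a group lay close together and Cre 2_2 did not stand apart. The same was true of *Cxcr4*, a chemokine receptor gene, at 135 to 177 in control and 20.6 to 34.4 in Cre (-2.48, adjusted p = 0.000217).

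Further genes that fell were *Ppp1r3b*, a regulator of glycogen synthesis (-1.44, adjusted p = 0.00223), and the stanniocalcin genes *Stc1* (-1.07, adjusted p = 0.0051) and *Stc2* (-1.03, adjusted p = 0.0432). So did the hydroxylase *Jmjd6* (-0.46, adjusted p = 0.0261), the carbonic anhydrase *Car12* (-2.02, adjusted p = 0.0307) and the placental growth factor *Pgf* (-1.11, adjusted p = 0.0489). The genes that rose were the nuclear receptor *Rora* (0.89, adjusted p = 0.00147) and the heme oxygenase *Hmox1* (0.88, adjusted p = 0.011). *Rora* had 635 to 670 normalized counts in control and 1087 to 1349 in Cre, and *Hmox1* had 250 to 368 and 452 to 586. Cre 2_2 was the lowest of the 6 libraries in 20 of the 44 tested HIF pathway genes and in 11 of the 31 others, against 23 of 34 members. Without Cre 2_2 the list had 6 lower and 1 higher, where 397 and 327 of all 14840 genes were lower and higher. Without Cre 2 it had 14 lower and 5 higher, where 1208 and 1188 of all genes were, so that the counts rose together.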

How the data were processed

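The 6 RNA-seq libraries, 3 control and 3 Cre, were grouped by their labels. Libraries were made by the authors with TruSeq RNA v2, which does not mark strand. The paper's methods name TopHat with mm9 and mm10 and DESeq2, whereas the submitters' processing notes name STAR 2.7, mm10 and DESeq2. The read counter, its strand setting and the annotation are not given in the sources used here. The deposited normalized counts are a signal per gene, which the authors made by scaling each library with DESeq2's size factor. Besides these, the authors deposited the log2 fold changes, their errors, a test statistic (a score) and p-values of their own comparison, and none of these was used. All columns of per-sample values were used. Of 53379 rows, 873 have no gene name, and 1 row with a missing value was left out.

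Read counts were recovered by dividing by the value of 1 read, and 100% of the values came out whole, to within 9.91e-05 of a whole number. Depth was 7510615 to 11161497 reads in control and 11893230 to 14828100 in Cre. limma 3.58.1 (lmFit, eBayes with trend, R 4.3.3) was run on log2(normalized count + 1) for 14840 genes with a mean of at least 10, with Benjamini-Hochberg adjustment over all of them. The alternatives were edgeR 4.0.16 (quasi-likelihood) and DESeq2 1.42.0 on the recovered reads, which called 1483 and 1755 genes against 1478, pseudocounts of 0.5 and 5, no filter, a mean of at least 50, TMM and total count scaling, averaging like-numbered libraries, an adjusted p under 0.1, and leaving out each library. The tests across genes were tested on simulated data. Replicate pairs differed by more than counting noise (chi-square per degree of freedom 5.85 to 36.0).

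Named are the members past the threshold or without overlap between groups, the HIF subunits and hydroxylases, and the further pathway genes past the threshold. The other members are given by level, fold change or range. The members and lists were chosen with earlier results of these data known. Exon lengths, overlapping genes and 50-base copies came from mm9 with GENCODE M1, and promoters from RefSeq on GRCm38.p6, where *Epas1*, *Slc2a3* and *Ndrg1* had no window.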

Additional observations from a re-analysis of the deposited data

How the results depend on the processing

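The direction of the 6 called members was the same under all alternatives, and *Pfkfb3* stayed past the threshold in all of them. The count of members that rose was 1, and 0 with no filter on low values, with control 1 and 1_1 averaged, with both like-numbered pairs averaged, and 0 to 1 when single libraries were left out. The count of members that fell was 5, 2 with control 1 and 1_1 averaged, and 1 to 12 without single libraries. Of the further pathway genes 3 rose, 5 with DESeq2, 1 with control 1 and 1_1 averaged, 6 at an adjusted p under 0.1, and 1 to 5 without single libraries. Of these genes 9 fell, 5 with control 1 and 1_1 averaged and 5 to 14 without single libraries. Over all genes 1478 were called, 660 with control 1 and 1_1 averaged, 885 with both pairs averaged, 2380 at an adjusted p under 0.1, and 558 to 2396 without single libraries. The median log2 fold change was -0.30 in the glycolytic enzymes (-0.33 to -0.027 without single libraries, -0.027 being without Cre 2_2) and -0.30 in the hypoxia response members (-0.57 to -0.14, without Cre 2 and Cre 2_2). *Hif1a*, *Hk2*, *Egln3* and *Adm* were not called with control 1 and 1_1 averaged. In that setting 351 of all genes were higher and 309 lower. With Cre 2 and 2_2 averaged, which leaves as many samples in the fit, it was 721 and 753. The cause of the loss was not tested.

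The sign of uncalled members turned in some settings. Without single libraries the log2 fold changes ran from -0.51 to 0.026 in *Slc2a1*, -0.068 to 0.099 in *Pfkm*, -0.25 to 0.014 in *Aldoa*, -0.27 to 0.12 in *Tpi1*, -0.089 to 0.41 in *Gapdh*, -0.89 to 0.17 in *Pgk1*, -0.14 to 0.41 in *Pgam1*, -0.91 to 0.18 in *Pdk1*, -0.053 to 0.31 in *Epas1*, -0.089 to 0.15 in *Arnt* and -0.57 to 0.36 in *Bnip3*. *Bnip3* was also at 0.033 with Cre 2 and 2_2 averaged and at 0.088 with both pairs averaged. The change in the log2 ratio of *Eno1* to *Eno2* ran from -0.046 (without Cre 3) to 0.35, and that of *Bnip3* to *Bnip3l* from -0.59 to 0.053 (without Cre 2_2). No paired analysis was possible because the groups share only the replicate number 2. Few reads limit the values of *Ankrd37*, *Ndrg1* and *P4ha2* in Cre 2_2, which rest on 6, 3 and 0 reads.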

Other observations

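The regulators of HIF outside the members were not called. They are named here for their role, after their values had been seen. *Vhl*, part of the ubiquitin ligase that marks hydroxylated HIF alpha for breakdown, had 117, 120 and 131 normalized counts in control and 234, 169 and 123 in Cre (log2 fold change 0.46, SE 0.23, limma adjusted p = 0.231). *Hif1an*, the asparagine hydroxylase that blocks the activity of HIF alpha, had 673 to 844 in control and 790 to 919 in Cre (adjusted p = 0.481). The prolyl hydroxylase *Egln2* had 731 to 978 and 685 to 957 (adjusted p = 0.896). *Arnt2*, the neural relative of *Arnt*, had 578 to 595 and 569 to 791 (adjusted p = 0.433). *Hif3a* was at most 12 normalized counts in every library, and *Car9*, a widely used marker of hypoxia, at most 2.93, so that both were under the filter. *Bhlhe40*, another hypoxia-induced gene, was 601 to 610 in control, 617 and 600 in Cre 2 and 3 and 835 in Cre 2_2 (log2 fold change 0.16, adjusted p = 0.546), so that Cre 2_2 was its highest library.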
